A study of Mus musculus with 22 samples.

Results

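The genes described here carry a cell through its division cycle. They were chosen by name, as a list of 42 genes in 4 groups: 11 genes of DNA replication, 22 genes of G2 and mitosis, 6 genes of G1 and the G1/S transition, and 3 inhibitors of cyclin-dependent kinases. Of these, 40 were measured among the 18524 genes of the arrays. Ccnb1 and Kif11, both of the mitosis group, were not measured here. Where a gene had several probes, the probe with the highest average stood for it.

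The arrays measured RNA of the gastrocnemius, a calf muscle, from 22 male C57BL/6N mice aged 8 to 12 weeks, all labelled non-diabetic and all with hindlimb ischemia. On day 5 of ischemia each mouse received intraperitoneally 12 mg/kg of a locked nucleic acid (LNA) oligonucleotide, and the muscle was taken on day 7. In the 11 ANTI-210 mice the oligonucleotide was directed against the microRNA miR-210, and in the 11 SCR mice it had a scrambled sequence. No muscle without ischemia was among the arrays, the oligonucleotide was given to the whole animal, and whole muscle was read rather than sorted cells.

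A dividing cell enters S phase when cyclin-dependent kinases free E2F transcription factors from the retinoblastoma protein, and E2F then switches on the genes that copy DNA. A later wave of genes, under B-Myb, FoxM1 and the MuvB complex, builds the spindle and separates the chromosomes. In injured muscle the dividing cells include satellite cells, which rebuild fibers, and macrophages, fibroblasts and vessel cells. Myoblasts leave the cycle before they fuse into fibers, an exit in which the inhibitors Cdkn1a and Cdkn1c take part.

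MiR-210 is induced by hypoxia, and several mitosis genes have been published as its targets. Its mature sequence is printed because it is the RNA that was blocked, with the seed (bases 2 to 8) in capitals. Sequence and position are those of RefSeq on GRCm38.p6, chr7:141221407-141221428, minus strand.
mmu-miR-210-3p: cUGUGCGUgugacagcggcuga

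Promoter windows of RefSeq on GRCm38.p6, which run from 250 bases before to 50 bases after the start of a transcript, were at hand for 33 of the 42 genes (36 windows), and not for Mcm4, Ccna2, Aurkb, Kif20a, Tpx2, Stmn1, Ccnd1, Ccnd2 and Cdkn1c. They were searched on both strands for the CHR element (TTTGAA), through which MuvB complexes bind mitotic promoters, for E2F sites spelled TTTCCCGC, TTTGGCGC, TTTCGCGC or TTTGCCGC, and for the CCAAT box. E2F spellings can overlap each other on opposite strands, and a match is only a run of letters. CHR letters stood in 13 of 18 windows of mitosis genes and in 1 of 11 windows of replication genes (Mcm2), while 17.893% of all 32851 windows held them. E2F letters stood in 4 of 11 windows of replication genes (those of Mcm3, Mcm5, Mcm6 and Mcm7), in 1 of 18 of mitosis genes (Cdk1) and in 1 of 4 of G1 genes (Cdk2), while 2.265% of all windows held them. CCAAT letters stood in 16 of 18 windows of mitosis genes and 9 of 11 of replication genes, against 37.408% of all windows. The 3 windows of the inhibitors Cdkn1a and Cdkn1b held neither CHR nor E2F letters.

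The windows of Top2a, Cdk1 and Plk1 are shown as mitosis genes with CHR letters, and those of Mcm5 and Mcm6 as replication genes with E2F letters, because these genes carry the comparisons of both waves. Capitals mark CHR and E2F letters on either strand, and overlapping matches form 1 run. Cdk1, the kinase that starts mitosis, held both kinds, E2F letters from position -131 and CHR letters from -71 and -15 relative to the start.
Top2a, chr11:99024140-99024439, minus strand: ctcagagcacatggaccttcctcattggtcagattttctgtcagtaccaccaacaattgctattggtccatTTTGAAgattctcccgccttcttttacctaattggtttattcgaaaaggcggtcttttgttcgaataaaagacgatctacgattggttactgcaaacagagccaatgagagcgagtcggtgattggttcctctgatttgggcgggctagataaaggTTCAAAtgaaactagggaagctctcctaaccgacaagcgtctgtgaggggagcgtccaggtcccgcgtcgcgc
Cdk1, chr10:69352863-69353162, minus strand: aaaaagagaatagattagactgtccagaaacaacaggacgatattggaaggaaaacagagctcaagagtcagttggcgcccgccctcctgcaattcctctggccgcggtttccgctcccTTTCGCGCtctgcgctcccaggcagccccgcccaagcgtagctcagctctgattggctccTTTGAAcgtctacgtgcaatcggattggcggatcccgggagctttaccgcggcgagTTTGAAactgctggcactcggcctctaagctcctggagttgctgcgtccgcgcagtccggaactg
Plk1, chr7:122159185-122159484, plus strand: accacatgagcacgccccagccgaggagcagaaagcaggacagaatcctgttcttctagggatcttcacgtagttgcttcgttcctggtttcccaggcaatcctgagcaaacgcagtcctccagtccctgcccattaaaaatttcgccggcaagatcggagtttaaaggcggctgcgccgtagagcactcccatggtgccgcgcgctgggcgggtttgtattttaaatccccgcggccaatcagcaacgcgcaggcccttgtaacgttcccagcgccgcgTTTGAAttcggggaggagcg
Mcm5, chr8:75109259-75109558, plus strand: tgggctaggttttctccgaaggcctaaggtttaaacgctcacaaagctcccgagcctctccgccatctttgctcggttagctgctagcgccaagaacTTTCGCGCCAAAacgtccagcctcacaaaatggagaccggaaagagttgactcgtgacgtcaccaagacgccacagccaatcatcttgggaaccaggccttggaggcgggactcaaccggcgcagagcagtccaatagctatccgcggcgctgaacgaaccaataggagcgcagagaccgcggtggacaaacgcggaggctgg
Mcm6, chr1:128359656-128359955, minus strand: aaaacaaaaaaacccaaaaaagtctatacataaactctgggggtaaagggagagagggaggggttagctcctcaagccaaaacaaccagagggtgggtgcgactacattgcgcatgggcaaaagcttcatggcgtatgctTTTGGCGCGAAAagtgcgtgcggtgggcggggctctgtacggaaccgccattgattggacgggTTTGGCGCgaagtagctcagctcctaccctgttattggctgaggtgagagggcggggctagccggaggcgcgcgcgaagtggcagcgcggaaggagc

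The values are log2 intensities as normalized by the authors. A gene with a mean under 6 was taken to be near the floor of the arrays, where changes are flattened, and 52.343% of all genes were. Of the cell cycle genes 29 had a mean of at least 6. The other 11 (Pcna, Rrm2, Ccna2, Ccnb2, Bub1, Kif20a, Tpx2, Ube2c, Cks2, Ccne1 and Cdkn1b) were near the floor. The tissue was as labelled, with means of 15.08 for Acta1 and 14.96 for Ckm, genes of mature fibers. Mice with replicate numbers 1 to 3, in both groups, stood apart from those numbered 4 to 11 on the second principal component of all probes (7.31% of the variance), with scores from 14.94 to 24.92 against -21.95 to 6.06. The labels name no batch, so the differences of the main genes and the means of the lists are also given within both sets of numbers.

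No cell cycle gene passed the test between ANTI-210 and SCR mice. With limma, 0 of 40 genes had an unadjusted p under 0.05, the threshold of the study's methods, and Student's t-test on the same values also gave 0. Of all genes 3.47% passed, 1.45% as higher and 2.01% as lower in ANTI-210 mice, and 0.0108% passed after Benjamini-Hochberg adjustment. The smallest limma p among the 40 was 0.273 (Tyms), and the smallest adjusted p was 1. Differences ran from -0.08 for Mcm2 to 0.44 for Top2a on the log2 scale, with standard errors from 0.0229 to 0.447. They were above 0 in 32 of 40 genes (80%) and in 47.8% of all genes, with a median of 0.11 against -0.0036 over all genes. In bulk muscle, fewer cells of a type and less RNA per cell cannot be told apart.

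**Figure D1:**
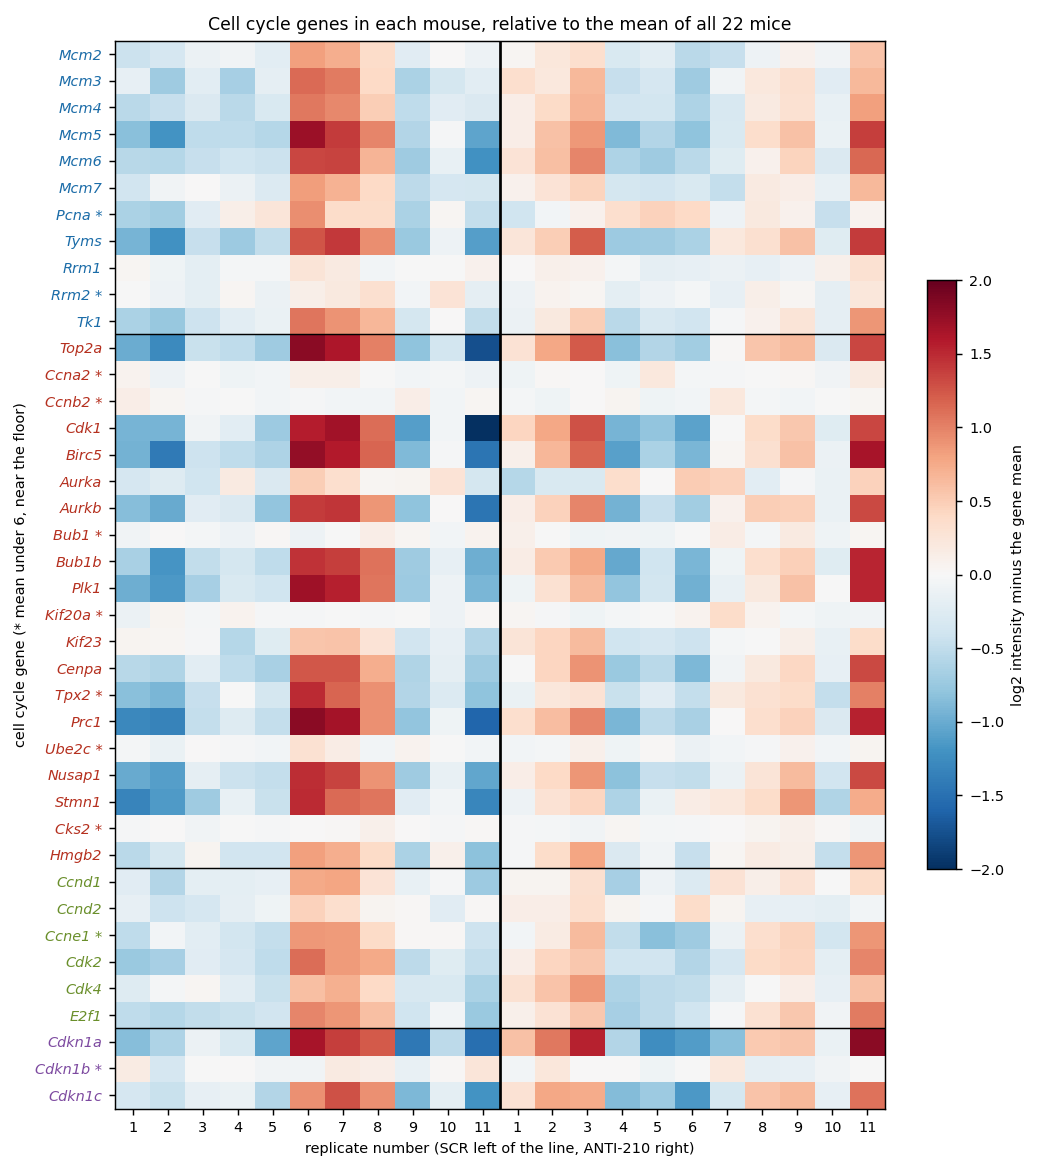
Log2 intensity of each of the 40 measured cell cycle genes (rows, names colored by group) in each mouse (columns, by replicate number, SCR left and ANTI-210 right), as the deviation from the gene's mean over all 22 mice, with colors ending at -2 and 2. SCR 6, SCR 7 and ANTI-210 11 are high in most rows with a mean of at least 6, and SCR 2 and SCR 11 are low, while rows near the floor (asterisks) are mostly pale.

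Of the replication genes, Mcm2 to Mcm7 form the helicase that opens the double helix, Pcna is the sliding clamp, and Tyms, Rrm1, Rrm2 and Tk1 supply nucleotides. Tyms, thymidylate synthase, ran from 6.51 through a median of 7.23 to 9.13 in SCR mice and from 6.99 through 7.95 to 9.11 in ANTI-210 mice. The groups overlapped over nearly the whole range, with a difference of 0.39 ± 0.35 (SE, 11 mice per group, limma p = 0.273). The arrays also carry Tyms-ps, a near copy of Tyms whose RNA the probe may read, and the other probes of Tyms, both near the floor, differed by 0.0045 and -0.04.

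Mcm6 ran from 7.86 through 8.63 to 10.41 in SCR mice and from 8.36 through 9.15 to 10.21 in ANTI-210 mice, a difference of 0.21 ± 0.31 (SE, limma p = 0.510). Its lowest and highest values both came from SCR mice. Rrm2, a subunit of ribonucleotide reductase, lay between 4.55 and 5.07 in SCR mice and between 4.55 and 4.98 in ANTI-210 mice, a difference of -0.05 ± 0.07 near the floor (SE, limma p = 0.432). The other replication genes differed by 0.22 (Mcm5), 0.12 (Mcm4), 0.11 (Pcna), 0.10 (Mcm3), 0.06 (Tk1), 0.02 (Mcm7), -0.03 (Rrm1) and -0.08 (Mcm2).

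The mitosis genes held several of the larger differences, with errors about as wide as the differences or wider. Top2a, the topoisomerase that untangles chromosomes before they part, ran from 5.94 through 7.18 to 9.50 in SCR mice and from 6.86 through 7.99 to 9.03 in ANTI-210 mice. The SCR mice held both ends of the range, and the difference was 0.44 ± 0.41 (SE, limma p = 0.290). Stmn1, a destabilizer of microtubules, ran from 4.71 through 5.81 to 7.53 in SCR mice and from 5.42 through 6.25 to 6.92 in ANTI-210 mice, a difference of 0.30 ± 0.32 (SE, limma p = 0.365).

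Hmgb2, a chromatin protein of dividing cells, ran from 6.71 through 7.17 to 8.34 in SCR mice and from 7.05 through 7.56 to 8.41 in ANTI-210 mice, a difference of 0.19 ± 0.21 (SE, limma p = 0.371). For this gene too the groups covered much the same range. Prc1, which bundles the microtubules of the midzone, differed by 0.35, and Birc5 and Aurkb, both of the chromosomal passenger complex, by 0.32 and 0.31. Cdk1 differed by 0.31, Nusap1 by 0.25, the checkpoint gene Bub1b by 0.20, the kinase gene Plk1 by 0.16, and Cenpa, the histone of centromeres, by 0.15. Tpx2, Kif23 and Aurka differed by 0.11, 0.08 and 0.05. Of the mitosis genes near the floor other than Tpx2, the differences of Ccna2, Ccnb2, Bub1, Kif20a, Ube2c and Cks2 lay between -0.03 (Ube2c) and 0.04 (Kif20a).

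Of the G1 and G1/S genes, Ccnd2, a D-type cyclin, ran from 8.32 through 8.65 to 9.19 in SCR mice and from 8.53 through 8.79 to 9.09 in ANTI-210 mice, a difference of 0.09 ± 0.10 (SE, limma p = 0.382). E2f1, the transcription factor of S phase entry, ran from 7.19 through 7.54 to 8.92 in SCR mice and from 7.27 through 8.03 to 8.98 in ANTI-210 mice, a difference of 0.20 ± 0.23 (SE, limma p = 0.393). Cdk2, the kinase of S phase, ran from 9.23 through 9.64 to 11.09 and from 9.39 through 10.10 to 10.95, a difference of 0.18 ± 0.24 (SE, limma p = 0.470). In all of them the SCR range took in most of the ANTI-210 mice. Ccnd1 and Cdk4 differed by 0.08 and 0.09, and Ccne1, near the floor, by -0.02.

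The inhibitors were contrasted with the genes that drive the cycle. Cdkn1a (p21) ran from 8.33 through 9.32 to 11.48 in SCR mice and from 8.60 through 10.36 to 11.64 in ANTI-210 mice, a difference of 0.39 ± 0.45 (SE, limma p = 0.390). Cdkn1c (p57) ran from 11.81 through 12.82 to 14.28 in SCR mice and from 11.87 through 13.30 to 14.10 in ANTI-210 mice, a difference of 0.16 ± 0.32 (SE, limma p = 0.629). Both differences had the sign of most replication and mitosis genes, and in both the groups overlapped almost fully. Cdkn1b (p27), near the floor, differed by -0.02 ± 0.06 (SE, limma p = 0.744), with 4.80 to 5.38 in SCR mice and 4.95 to 5.36 in ANTI-210 mice.

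**Figure D2:**
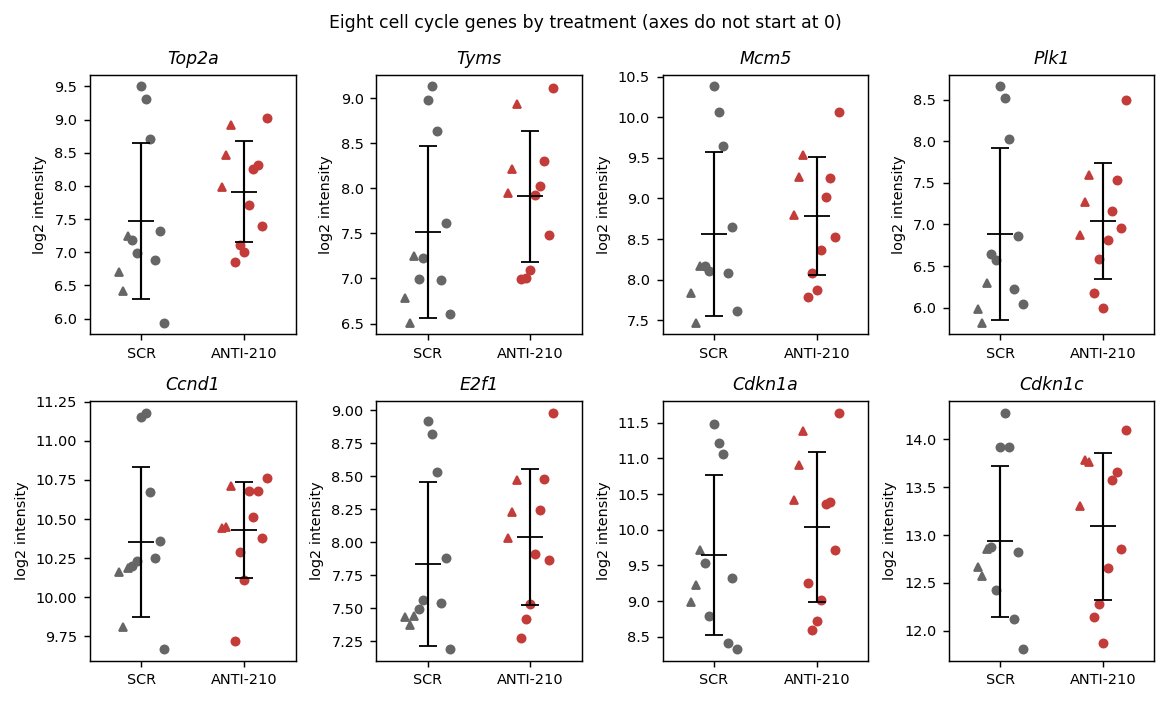
Log2 intensity of 8 cell cycle genes in each SCR (grey) and ANTI-210 (red) mouse, with triangles for replicate numbers 1 to 3, circles for 4 to 11, and bars for mean and SD of 11 mice; the axes do not start at 0. The groups overlap in every panel, and the triangles of ANTI-210 lie above those of SCR.

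The differences had other values within the sets of replicate numbers. Among the numbers 1 to 3, every ANTI-210 mouse lay above every SCR mouse in 27 of 40 cell cycle genes, and 19.1% of all genes were separated in this way. The first principal component of all probes (63.634% of the variance) separated these mice too. Its scores ran from 12.23 to 59.72 in the ANTI-210 and from -36.72 to -21.92 in the SCR mice. With limma on these 6 mice alone, 29 of 40 passed the unadjusted threshold as higher, against 17.6% of all genes. An exact test of 3 against 3 mice cannot go below p = 0.1. The separated genes were 8 of 11 replication genes, 12 of 20 mitosis genes, 5 of 6 G1 genes and 2 of 3 inhibitors. Top2a differed by 1.67 in this set, Prc1 by 1.67, Cdkn1a by 1.59, Tyms by 1.52 and Mcm5 by 1.37.

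Among the numbers 4 to 11, with 8 mice per group, the same genes differed by -0.02 (Top2a), -0.15 (Prc1), -0.06 (Cdkn1a), -0.03 (Tyms) and -0.22 (Mcm5). The smallest p of an exact two-sided permutation test in this set was 0.152 among the 40 (Mcm2, -0.29). Averaged over its measured genes, the replication group differed by 0.72 in numbers 1 to 3 and -0.14 in 4 to 11. The mitosis group differed by 0.77 and -0.06, the G1 group by 0.65 and -0.10, and the inhibitors by 0.88 and -0.09. Over all mice the means above 0 thus rested on numbers 1 to 3.

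The change of the treatment effect between both sets was tested as an interaction in limma. It had an unadjusted p under 0.05 in 4 of 40 genes, namely Ccnd2 (p = 0.0049), Mcm2 (p = 0.024), Tk1 (p = 0.036) and Prc1 (p = 0.043), against 12.2% of all genes, and 0 passed after adjustment. Over all 18524 genes 2262 had an unadjusted p under 0.05, 1042 without ANTI-210 3, 3182 without SCR 11 and 4334 without ANTI-210 11. The count of cell cycle genes changed with single mice too. It was 1 without ANTI-210 3, 2 without SCR 2, SCR 8, ANTI-210 2 or ANTI-210 4, 7 without SCR 3, 8 without SCR 4 or ANTI-210 1, 9 without SCR 5 or ANTI-210 9, 11 without SCR 9, 16 without SCR 11 and 20 without ANTI-210 11.

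**Figure D3:**
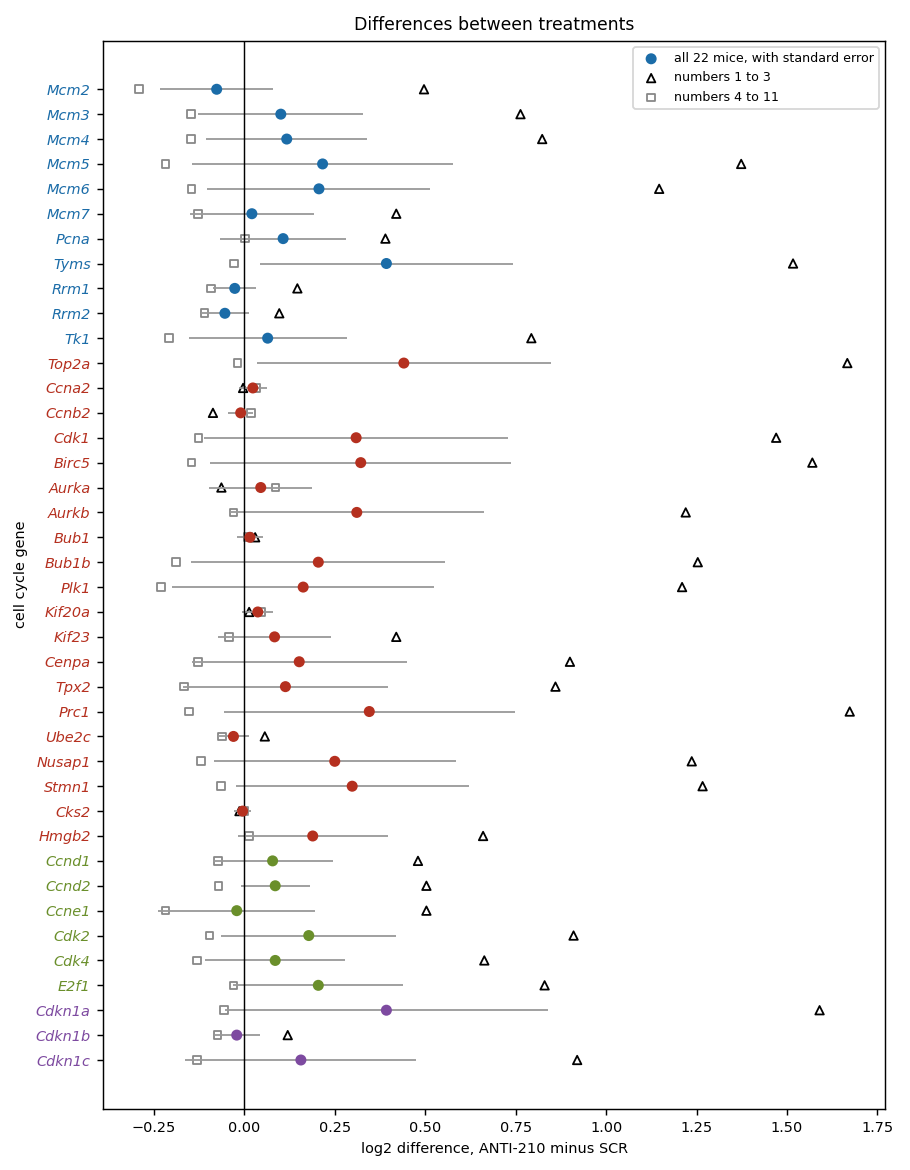
Log2 difference between ANTI-210 and SCR mice for each of the 40 cell cycle genes over all 22 mice (filled circles colored by group, with standard error), in replicate numbers 1 to 3 (triangles) and in 4 to 11 (squares). Most triangles lie to the right of 0 and most squares slightly to its left, with the circles between them.

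In most of these genes the spread between mice was wide. Over the 29 genes with a mean of at least 6, the median span from the lowest to the highest mouse was 2.21 on the log2 scale, against 1.01 for all 8828 such genes. It exceeded 1 in 27 of 29 genes (50.5% of such genes) and 2 in 15 of 29 (12.4%). Cdk1 spanned 3.71, which is 13.1-fold, Top2a 3.56 (11.8-fold), Prc1 3.39 (10.5-fold) and Cdkn1a 3.31 (9.92-fold). Rrm1, the large subunit of ribonucleotide reductase, spanned only 0.51, and Ccnd2 0.87. By group, the median span was 1.82 for replication, 2.82 for mitosis, 1.51 for G1 and 2.89 for the inhibitors Cdkn1a and Cdkn1c.

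The same few mice stood at the ends. SCR 6 was the highest mouse in 14 of 29 genes and among the 3 highest in 28, SCR 7 was the highest in 6 and among the 3 highest in 25, and ANTI-210 11 was the highest in 6 and among the 3 highest in 23. SCR 11 was the lowest in 13 and SCR 2 in 7. SCR 6, SCR 7 and ANTI-210 11 also had the highest scores of all mice on the first principal component of all probes (63.634% of the variance), at 85.29, 76.44 and 80.23, so these muscles were apart in much more than cell cycle genes. The SD was higher among SCR than among ANTI-210 mice in 26 of 29 genes (89.7%), against 65.2% of such genes, and this was not tested.

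The mice were then ordered by Top2a, which marks cells in S phase to mitosis, and the relation of every gene to it was tested across the 22 mice with a permutation test (100000 resamples, two-sided, adjusted over 18523 genes). Of 39 cell cycle genes 33 rose with Top2a at an adjusted p under 0.05, and 0 fell, also at an unadjusted p under 0.05. Of all genes, 24.1% rose and 21.6% fell by this rule, and of genes with a mean of at least 6, 37.1% rose. Of the 28 cell cycle genes at that level other than Top2a, 27 rose, all but Aurka. The median r over the 39 genes was 0.93, against -0.05 over all genes.

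**Figure D4:**
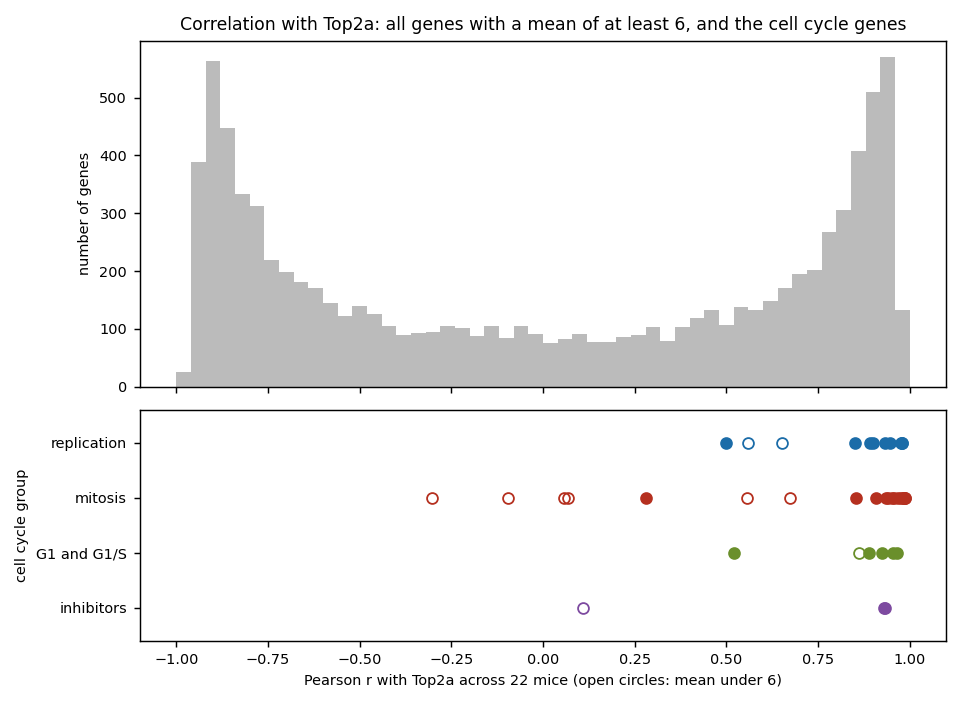
Upper panel, number of genes by Pearson r with Top2a across 22 mice, for all genes with a mean of at least 6. Lower panel, r of each cell cycle gene by group, with open circles for genes near the floor: filled circles lie mostly above 0.85, at the right edge of a distribution that has a peak at both ends.

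Of the mitosis genes 14 of 19 rose, and the highest r of all cell cycle genes was that of Prc1 at 0.99 (rho = 0.99). Aurkb had r = 0.99 (rho = 0.99), Birc5 r = 0.98 (rho = 0.99) and Nusap1 r = 0.98 (rho = 0.99), each with p = 1e-05, the smallest that the permutations can give, and an adjusted p of 4.63e-05. Without SCR 6 and SCR 7, the mice farthest from the median of Top2a, r was still 0.98, 0.98, 0.98 and 0.97 for Prc1, Aurkb, Birc5 and Nusap1. Their r was 0.98 to 0.99 within SCR mice and within ANTI-210 mice. Cdk1, Bub1b, Cenpa, Plk1, Tpx2, Hmgb2, Stmn1 and Kif23 had r from 0.85 (Kif23) to 0.98 (Cdk1).

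Aurka, the kinase of the spindle poles, did not pass (r = 0.28, rho = 0.25, adjusted p = 0.320). Its r was 0.76 in SCR mice and -0.34 in ANTI-210 mice. It spanned 1.08, with its lowest value in ANTI-210 1 and its highest in ANTI-210 6. Ccnb2, Bub1, Kif20a and Cks2, all near the floor, had r between -0.30 and 0.07 and did not pass.

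All 11 replication genes rose with Top2a. Tyms had r = 0.98 (rho = 0.98), Mcm5 r = 0.98 (rho = 0.98) and Mcm6 r = 0.98 (rho = 0.96), each with an adjusted p of 4.63e-05. Tk1, Mcm4, Mcm3, Mcm7 and Mcm2 had r of 0.95, 0.93, 0.90, 0.89 and 0.85. Rrm1 (r = 0.50, adjusted p = 0.041), Pcna (r = 0.56, adjusted p = 0.0185) and Rrm2 (r = 0.65, adjusted p = 0.00313) were looser. Rrm1 and Pcna lost the call without SCR 6 and SCR 7, with r of 0.29 and 0.39 (adjusted p = 0.346 and 0.176). Pcna, near the floor, also had r = 0.85 within SCR mice and -0.27 within ANTI-210 mice.

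Of the G1 genes, E2f1, Cdk2, Ccnd1, Cdk4 and Ccne1 had r of 0.97, 0.96, 0.93, 0.89 and 0.86. Ccnd2 had r = 0.52 (adjusted p = 0.0301), with 0.745 within SCR mice and -0.03 within ANTI-210 mice. It lost the call without SCR 6 and SCR 7 (r = 0.30, adjusted p = 0.336). The dim Ccna2 and Ube2c, of the mitosis group, had r of 0.56 and 0.67 and lost it too (r = 0.42 and 0.48, adjusted p = 0.132 and 0.0753). Without those mice 28 of 39 genes rose, and 3916 of all 18523 genes, against 4456 with every mouse. By Spearman's rho 30 rose (4283 of all genes), within SCR mice 32 (3747) and within ANTI-210 mice 28 (3395). In numbers 4 to 11 alone 30 rose (4275 of all genes). In numbers 1 to 3 alone, where 6 mice were tested by exact permutation, 21 rose (1049 of all genes).

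The inhibitors Cdkn1a and Cdkn1c rose with Top2a as well, in the direction of the genes that drive the cycle. Cdkn1a had r = 0.93 (rho = 0.90, adjusted p = 4.63e-05), and Cdkn1c had r = 0.93 (rho = 0.91, adjusted p = 4.63e-05). Without SCR 6 and SCR 7 both kept r = 0.92. Within the treatments r was 0.95 (SCR) and 0.93 (ANTI-210) for Cdkn1a, and 0.95 and 0.96 for Cdkn1c. Cdkn1b, near the floor, had r = 0.11 (rho = 0.10, adjusted p = 0.743).

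**Figure D5:**
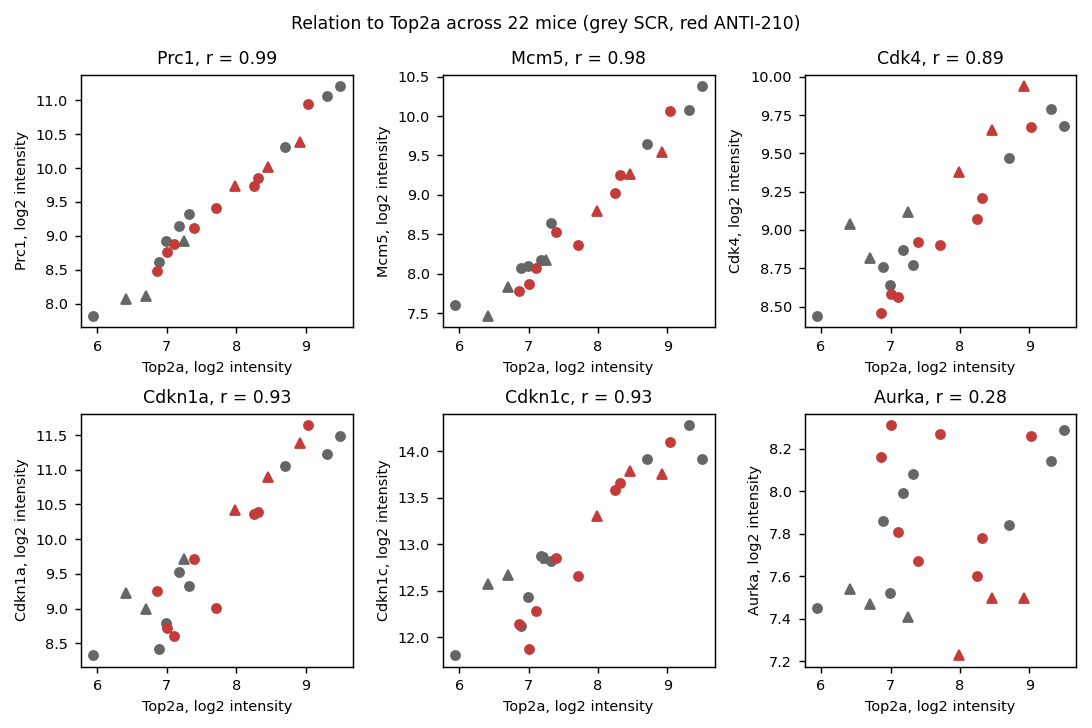
Log2 intensity of 6 cell cycle genes against that of Top2a in each of 22 mice (grey SCR, red ANTI-210, triangles for replicate numbers 1 to 3); the axes do not start at 0. The inhibitors Cdkn1a and Cdkn1c rise with Top2a as Prc1, Mcm5 and Cdk4 do, while Aurka (r = 0.28) is scattered.

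For 1 log2 step of Top2a the fitted step was, at the median of genes with a mean of at least 6, 0.50 for replication, 0.82 for mitosis, 0.41 for G1 and 0.87 for the inhibitors. Among single genes it was 1.02 for Cdkn1a, 0.998 for Cdk1, 0.97 for Prc1, 0.85 for Mcm5, 0.71 for Cdkn1c, 0.55 for E2f1, 0.37 for Ccnd1 and 0.07 for Rrm1. Probes differ in how much they flatten changes, so these steps describe probes as well as genes. The step differed between ANTI-210 and SCR mice with an unadjusted limma p under 0.05 in 8 of 39 genes, against 14.6% of all genes. These were Pcna, Ccne1, Cdk4, Cdkn1c, Cenpa, Aurka, Stmn1 and Cdkn1a, and the smallest adjusted p was 0.143 (Pcna). Among the inhibitors the step was 1.30 in ANTI-210 and 0.91 in SCR mice for Cdkn1a (p = 0.041), and 0.97 and 0.64 for Cdkn1c (p = 0.0078, adjusted p = 0.200).

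Further genes of the same machinery, listed by function, were read in the same way, beside the 24.1% of all genes that rose and the 21.6% that fell. Of 34 genes of replication origins and forks 23 rose with Top2a and 5 fell, with the ligase Lig1 (r = 0.97) at one end and Rpa2, a single-strand binding protein, at the other (r = -0.81). Of 38 genes of spindle, kinetochore and cytokinesis 29 rose and 2 fell. Those that fell were Bub3 (r = -0.92), a checkpoint gene, and Pttg1 (r = -0.88), the securin. Of 13 E2F and MuvB factors 5 rose and 2 fell, with Foxm1 at r = 0.95 and E2f6, a repressor, at r = -0.94. The share that rose lay above the 24.1% of all genes and near the 37.1% of genes with a mean of at least 6. Of these 13 factors 4 were near the floor.

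Of 16 pocket protein, INK4 and p53 response genes 7 rose and 2 fell, with Btg1, an antiproliferative gene, at r = 0.95, Rb1 at 0.87 and Ccng1 at -0.89. Of 14 other cyclins and kinases 5 rose and 0 fell, with Ccnd3, the D cyclin of differentiating muscle, at r = 0.97. Here too the share that rose lay above 24.1% and near 37.1%, and 8 of the 14 genes were near the floor. Of 10 histone genes 5 rose (H2ac15, r = 0.97) and 4 fell (H2ac18, r = -0.90). Of 6 genes published as targets of miR-210, which include E2f3 and, from the cell cycle list, Plk1 and Bub1b, 4 rose, Cdc25b among them (r = 0.92). Cdc25b and Ccnf, another of the 6, were near the floor. E2f3 had r = 0.47 (adjusted p = 0.0559).

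Between treatments few of these genes passed the unadjusted threshold, which 1.45% of all genes passed as higher and 2.01% as lower. Of the pocket protein, INK4 and p53 list 0 of 16 were higher and 2 lower in ANTI-210 mice, Cdkn2a by -0.18 ± 0.06 (SE, limma p = 0.0056, near the floor) and Gadd45b by -0.24 ± 0.10 (SE, limma p = 0.022). Of the E2F and MuvB list 0 of 13 were higher and 1 lower, Lin9 by -0.05, at the floor. In the lists of origins and forks, spindle, other cyclins, histones and published targets 0 passed in either direction, and the smallest p in each was that of Pola1 (p = 0.063), Smc4 (p = 0.059), Cdk7 (p = 0.124), H2bc4 (p = 0.455) and Cdc25b (p = 0.295). All of these genes but H2bc4 were near the floor. E2f3 differed by -0.06 ± 0.08 (SE, limma p = 0.491). The adjusted p was 1 for Cdkn2a, Gadd45b and Lin9. Cdkn2a differed by -0.21 in numbers 1 to 3 and -0.16 in 4 to 11, Gadd45b by -0.23 and -0.24, and Lin9 by -0.04 and -0.06.

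The list means had other values in the sets of numbers. In numbers 1 to 3 and 4 to 11 the mean was 0.34 and -0.09 for origins and forks, 0.51 and -0.10 for the spindle list, and 0.57 and -0.10 for the published targets, which include the cell cycle genes Plk1 and Bub1b. For the pocket protein, INK4 and p53 list it was 0.12 and -0.05, for E2F and MuvB factors 0.06 and -0.04, for other cyclins and kinases 0.11 and 0.0034, and for histones -0.05 and -0.01.

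The genes outside the list whose levels were most like Top2a over the 22 mice, by Pearson r and with a mean of at least 6, were Cntn2 (r = 0.99), Pdlim4, H2ac24, Ndc80, Tyms-ps, Tubb5, Cenpt, Frmd4a, Fignl1 and Pclaf (r = 0.98 each). Ndc80 and Cenpt are kinetochore genes and Pclaf encodes a partner of Pcna. The lowest r belonged to Kiz (-0.98), Tango2, Dnajb12, Cyp27a1 and Anapc5 (-0.97 each), of which Anapc5 is a subunit of the anaphase-promoting complex.

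Markers of several cell types were read in the same way, again beside the 24.1% of all genes that rose and the 21.6% that fell. Of 15 macrophage and monocyte markers 14 rose and 1 fell (Cd163), with Csf1r at r = 0.95 and C1qa at 0.93. The summed linear level of the list ran from 5430.8 to 44457.6 in SCR and from 8144.6 to 43071.1 in ANTI-210 mice, with Ccr2 and Itgam near the floor. Of 15 markers of satellite cells and regenerating fibers 11 rose and 1 fell (Vgll2), with Megf10 and Myog, the driver of myoblast differentiation, at r = 0.96 each. Their sum ran from 57482.1 to 150939.3 in SCR and from 57481.7 to 149780.0 in ANTI-210 mice, with Pax7 and Myf5, which define satellite cells, near the floor. A linear sum follows mainly the brightest genes, here Myh8, Des, Actc1 and Myl4, with means from 13.69 to 14.94. Of these, Des did not pass with Top2a (r = -0.06) and the others rose.

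Of 10 fibroblast markers 8 rose and 1 fell (Pi16), with Col3a1 at r = 0.96 and Col1a1 at 0.94, and their sum ran from 30857.4 to 72283.3 in SCR and from 34599.2 to 72841.5 in ANTI-210 mice, with Postn near the floor. Of 15 markers of mature fibers 0 rose and 8 fell, with Pygm at r = -0.92 and Myoz1 at -0.88, and sums from 353603.3 to 456063.1 and from 339019.8 to 457999.3. Of 12 endothelial markers 2 rose (Eng, r = 0.70), 2 fell (Vwf, r = -0.59) and most did not pass, shares below those of all genes, with sums from 12369.2 to 18017.9 and from 14399.9 to 19858.0. Of 9 T, B and NK cell markers 4 rose, Nkg7 (r = 0.79) and Cd3d (r = 0.68) among them, with sums from 1122.5 to 1538.8 and from 1149.4 to 1512.6. Of these 9 markers 6 were near the floor, Cd3d among them. The brightest was Foxp3 (mean 9.90, r = 0.59), and a linear sum follows mainly that gene. The part of these cell types in the relation of cell cycle genes to Top2a was not tested.

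Of 9 neutrophil and 4 red cell markers 0 passed with Top2a in either direction, adjusted or not, and the genes with the largest r in size were Ngp (r = -0.37), S100a9 (r = -0.31), Epb42 (r = -0.20) and Alas2 (r = -0.09). However, 7 of the 9 neutrophil and 2 of the 4 red cell markers were near the floor, Ngp and Epb42 among them, which limits what relation could be seen. Between treatments, 5 of 12 endothelial markers were higher in ANTI-210 mice and 0 lower at the unadjusted threshold, which 1.45% of all genes passed as higher. Among them were Emcn by 0.21 (limma p = 0.0053), Cdh5 by 0.25 (p = 0.0096), Robo4 by 0.20 (p = 0.017) and Esam by 0.17 (p = 0.048), each with an adjusted p of 1. In numbers 1 to 3 these genes differed by 0.50, 0.55, 0.59 and 0.56, and in 4 to 11 by 0.10, 0.14, 0.06 and 0.02, with a mean over the list of 0.35 and 0.06. Of 9 T, B and NK cell markers 1 was higher, Cd3d by 0.37 near the floor (limma p = 0.021, adjusted p = 1), with 0.58 in numbers 1 to 3 and 0.30 in 4 to 11. Macrophage markers had a median difference of 0.32, the markers of satellite cells and regenerating fibers 0.06 and the fibroblast markers 0.20, and in these and the lists of mature fiber, neutrophil and red cell 0 passed, with the smallest p at Lyz2 (p = 0.275), Des (p = 0.249), Pi16 (p = 0.159), Mylpf (p = 0.110), Cxcr2 (p = 0.311) and Slc4a1 (p = 0.193). The numbers 1 to 3 carried the larger differences in these lists as well, at 0.84 for the macrophage mean, 0.64 for satellite cells and regenerating fibers, and 0.72 for fibroblasts, against 0.04, -0.09 and -0.05 in numbers 4 to 11.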

How the data were processed

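Total RNA of 22 muscles, 1 array per mouse, was labelled and hybridized to Illumina MouseWG-6 v2 arrays. Beads were summarised in GenomeStudio and the intensities quantile normalized and filtered with beadarray by the authors, who deposited log2 values (the base is taken from their range, 4.35 to 15.4); software versions and filter thresholds are not given here. Of 38563 probes 32093 carry 1 gene symbol in the platform annotation, 16 several and 6454 none, and the last 2 kinds name no gene. No pair of arrays was identical (r from 0.947 to 0.997). Precision is limited by the number of arrays and by dim probes.

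Differences are ANTI-210 minus SCR from limma 3.58.1 (R 4.3.3) over all probes, with an unadjusted p under 0.05 as threshold, after the study's methods, and Benjamini-Hochberg adjustment over all of them. Relations to Top2a are Pearson's r with a permutation p from 100000 resamples (Python 3.11.15, numpy 2.4.6), exact where fewer orders exist, adjusted over all genes. Probes of 18 of the 40 genes numbered more than 1, and in 7 of these they lay on both sides of 0. Of the 73 probes 1 passed, a dim one of Tk1 (-0.06, limma p = 0.022). The text names every cell cycle gene, up to 4 genes of each other list by smallest p, and genes by r with Top2a. Scripts were tested on simulated data. Genes and lists were chosen with earlier results of these data known.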

Additional observations from a re-analysis of the deposited data

How the results depend on the processing

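The counts of cell cycle genes past the threshold stayed at 0 with cyclic loess, median centring, and eBayes with trend and robust fit. They did so with brighter probes only, the mean of all probes, the methods' t-test, numbers 4 to 11 alone, and any 1 mouse left out. Renewed quantile normalization and the replicate set as covariate also gave 0. The former could move little, since sorted values already differed between arrays by at most 0.07. The latter leaves the differences unchanged, since each set holds equal numbers of SCR and ANTI-210 mice. With array weights 3 were higher (Tyms, Top2a, E2f1), with the first principal component as covariate 2 were higher (Tyms, Top2a) and 1 lower (Mcm2), and in numbers 1 to 3 alone 29 were higher. Over all 18524 genes the count of 642 (269 higher, 373 lower) became 1920 with array weights (984 higher, 936 lower). It was 1215 with the first principal component (612 higher, 603 lower) and 6420 in numbers 1 to 3 (3260 higher, 3160 lower). With brighter probes it was 282 of 10956 genes (126 higher, 156 lower). In numbers 1 to 3 the mean differences of replication, mitosis, G1 and inhibitor genes were 0.72, 0.77, 0.65 and 0.88, and Mcm2 (0.50) and Ccne1 (0.50) turned from lower to higher; the cause was not tested. A change of sign is counted as a reversal only where a value passed, and 49 of 513 gene values changed sign without passing, as did 26 of 880 with a mouse left out, over 9 genes.

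The interaction count of 4 of 40 became 8 of 33 with brighter probes and ran from 1 to 20 with a mouse left out. Over all genes 2262 of 18524 became 1793 of 10956 with brighter probes, and 1042 to 4334 with a mouse left out. The count of 33 genes that rose with Top2a (4456 of all 18523 genes) became 21 in numbers 1 to 3 (6 mice, 1049 of all genes). With the dim Ccna2 as reference 0 rose (0 of all genes), where 29 cell cycle genes had an unadjusted p under 0.05. With Cdk1 as reference, chosen after seeing the data, 31 rose (4407 of all genes). A pairing of mice by replicate number was not seen, though a weak one could be hidden by the wide spread between mice. Deviations of same-numbered mice correlated at r from -0.664 to 0.641, with 4 of 11 pairs over 0.1. Of 22 mice 2 correlated best with their own number. With the replicate number as a block, 0 cell cycle genes passed. The group means of 0.10, 0.16, 0.10 and 0.18 could not change there, because each number holds 1 SCR and 1 ANTI-210 mouse.

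The mean differences restricted to genes with a mean of at least 6, and the slope on Top2a by treatment, were also added after seeing the data. Which mice shared a chip is not stated in the labels or methods. For the 11 genes near the floor, dim probes limit what change can be seen.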

Other observations

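Restricted to genes with a mean of at least 6, the mean difference between ANTI-210 and SCR mice was 0.11 for replication genes (9 genes), 0.24 for mitosis (13), 0.13 for G1 (5) and 0.27 for the inhibitors Cdkn1a and Cdkn1c. The mean of the mitosis genes minus that of the replication genes, each centered on its mean over all mice, ran from -0.63 in SCR 11 to 0.31 in ANTI-210 11, with group means of -0.06 in SCR and 0.06 in ANTI-210 mice. SCR 6, SCR 7 and SCR 8 followed ANTI-210 11 at 0.30, 0.29 and 0.28, and SCR 1 and SCR 2 had -0.30 each. The median fitted step on Top2a was 0.82 for mitosis and 0.50 for replication genes, so this subtraction rises with the level of both groups. It does not by itself show a shift between phases.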
